A study of Mus musculus with 12 samples.

Results

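The immediate early genes measured here are Fos, Junb, Egr1, Egr2, Arc, Npas4, Nr4a1, Ier2 and Dusp1, followed in 12 brains of newborn female mice. Members were the genes of a list of 10 symbols whose main probesets carry that symbol in the deposited table, and 9 of the 10 were matched, with 78 of the 221417 probesets used and 9 of the 17550 genes. Fosb was not matched and is not analysed here except for its promoter sequence. The study compared 6 wildtype brains (KIS +/+) with 6 KIS-ko brains (KIS -/-), 1 of each genotype from each of 6 litters, to learn which transcripts change when the kinase KIS, the product of the gene Uhmk1, is missing. The line had been backcrossed to C57BL6/N, and RNA came from whole brains that had been snap-frozen and pulverised. Neither the hour after birth nor the order of dissection is given in the sources used here.

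Immediate early genes are transcribed within minutes of a stimulus without new protein synthesis. In neurons, calcium entry and growth factor signals activate the factors CREB and SRF, already bound near these genes, and the short-lived mRNAs then fall back quickly. Fos, Arc, Egr1 and Npas4 are for this reason widely used as markers of recent neuronal activity, and several members also respond to handling, stress or hypoxia in many cell types.

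RefSeq promoter windows, of 250 bases before and 50 bases after an annotated start site in assembly GRCm38.p6, were matched for 7 of the 10 listed genes, namely Fos, Fosb, Junb, Egr2, Npas4, Nr4a1 and Dusp1, with 5 windows for Egr2 and 1 for each other gene. Egr1, Arc and Ier2 had no entry. Both strands of each window were searched for the cyclic AMP response element TGACGTCA, its core TGACG, which the full element contains, the CArG box bound by SRF, the AP-1 site TGANTCA and the TATA box TATAAA. The core of the cyclic AMP response element was present in a window of each of the 7 genes, and in 20.8% of all 32851 windows in the table and 23.0% of its genes. The sequences of 5 genes whose values are described below are printed to show these letters, as the 250 bases before the start site in the direction of transcription, with every match on either strand in capitals.

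Fos, chr12:85473640-85473889, plus strand: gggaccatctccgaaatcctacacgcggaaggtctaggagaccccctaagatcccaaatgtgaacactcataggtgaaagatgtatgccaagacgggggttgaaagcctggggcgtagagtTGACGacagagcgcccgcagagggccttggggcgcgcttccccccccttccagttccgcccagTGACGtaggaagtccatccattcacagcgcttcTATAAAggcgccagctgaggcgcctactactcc
Egr2, chr10:67537619-67537868, plus strand: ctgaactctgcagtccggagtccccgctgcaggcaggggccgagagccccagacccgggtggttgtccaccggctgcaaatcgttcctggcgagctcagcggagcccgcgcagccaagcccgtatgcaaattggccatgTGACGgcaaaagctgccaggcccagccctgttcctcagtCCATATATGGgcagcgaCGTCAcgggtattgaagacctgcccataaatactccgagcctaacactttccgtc
Npas4, chr19:4989972-4990221, minus strand: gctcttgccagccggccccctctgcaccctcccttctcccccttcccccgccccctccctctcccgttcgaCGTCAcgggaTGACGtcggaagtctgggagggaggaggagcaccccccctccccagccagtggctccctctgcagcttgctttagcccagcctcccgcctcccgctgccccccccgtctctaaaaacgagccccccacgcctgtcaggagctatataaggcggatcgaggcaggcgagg
Nr4a1, chr15:101266596-101266845, plus strand: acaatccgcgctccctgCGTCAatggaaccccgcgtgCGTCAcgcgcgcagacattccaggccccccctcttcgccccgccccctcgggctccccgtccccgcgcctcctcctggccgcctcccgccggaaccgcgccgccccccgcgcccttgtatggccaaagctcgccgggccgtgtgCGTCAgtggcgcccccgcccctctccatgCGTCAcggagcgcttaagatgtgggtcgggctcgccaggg
Dusp1, chr17:26508473-26508722, minus strand: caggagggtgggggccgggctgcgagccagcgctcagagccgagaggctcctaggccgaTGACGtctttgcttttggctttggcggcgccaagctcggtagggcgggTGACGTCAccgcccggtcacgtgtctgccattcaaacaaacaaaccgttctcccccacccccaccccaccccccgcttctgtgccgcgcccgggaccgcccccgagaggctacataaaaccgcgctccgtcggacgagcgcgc

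The full element TGACGTCA was found in the window of Dusp1, 143 bases before the start site, and in 1.79% of all windows. In Fos the core lay 129 and 66 bases before the start, with a TATA box at 33 bases, and in Nr4a1 it lay at 233, 213, 69 and 40 bases. The Egr2 window shown holds a CArG box at 72 bases, a motif present in 1.63% of all windows, with cores at 111 and 55 bases. Junb and Fosb, which are not printed, each held 1 core, at 106 and 60 bases. The AP-1 site occurred in none of the 7 genes' windows, in 7.81% of all windows and in 8.97% of genes. TATAAA occurred in windows of 2 members, Fos and Junb, against 13.6% of all windows and 15.7% of genes. In Junb the match lay 0 bases before the start, so that it begins at the start site and not ahead of it. A match of letters is a description and says nothing of binding in these brains.

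Each array held 1 brain, and the deposited value of a probeset, a group of short probes in 1 exon or part of it, is the PLIER signal on a linear scale. To obtain 1 value per gene, log2(signal + 16) was averaged across its probesets, and such values are not compared between genes. A probeset was called bright when its mean signal over the 12 arrays exceeded 713, the 95th percentile of 5222 intron control probesets, whose median was 114. The median signal of an array lay between 478 and 546.

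The targeted gene, Uhmk1, was low in every library labelled KIS-ko. Its gene value was 10.87 ± 0.074 in the 6 wildtype and 8.41 ± 0.23 in the 6 KIS-ko brains (mean ± SD), a log2 difference of -2.46 with a standard error of 0.092 (limma, litter as a block, adjusted p = 2.4e-06), and the 6 litters ran from -2.80 to -2.12. The measured markers of neurons numbered 6 of 8, and each of the 6 had a bright probeset.

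How far the arrays saw the members differed widely between them. Of the 78 member probesets 22 (28.2%) were bright, against 41.4% of all probesets used. Dusp1, a phosphatase that switches off MAP kinases, had 5 bright probesets of 6. Egr1, a zinc finger transcription factor induced by synaptic activity, had 7 of 18, Nr4a1, an orphan nuclear receptor, had 5 of 12, Npas4, a neuron-specific factor that responds to calcium entry, had 3 of 13, and Egr2, the family member known for its part in myelination and hindbrain patterning, had 2 of 8. Fos and Junb, which pair as subunits of the dimeric factor AP-1, Arc, a synaptic protein that controls receptor uptake, and Ier2, a small nuclear protein, had no bright probeset among 7, 6, 5 and 3.

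Agreement among the probesets of a gene was closest for Dusp1. The mean Pearson r between its 6 probesets over the 12 brains was 0.883, higher than in 99.9% of the 16228 genes with at least 3 probesets, whose median was 0.226. Nr4a1 had a mean r of 0.495 and Npas4 of 0.410, and among their bright probesets alone the values were 0.646 and 0.660. In Junb and Arc the mean r was -0.035 and -0.047, in Ier2 0.152, in Egr2 0.091 and in Fos 0.302. Values of the 4 members without a bright probeset are averages of probesets that lay within the range of the intron controls.

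Egr1 was a mixed case. In order from the 5′ end, its first 9 probesets had mean signals between 27.3 and 196, the next 7 between 781 and 3347, and the last 2 were again below 713. The 18 probesets cover 5104 bases in the table, where RefSeq gives the gene a length of 3750 bases in its own assembly, and the stretch from the first bright probeset to the last probeset covers 3525 bases. Mean r was 0.188 over all 18 probesets and 0.873 among the 7 bright ones, and the means of the bright and of the 11 other probesets correlated over the 12 brains with r = 0.631.

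**Figure D1:**
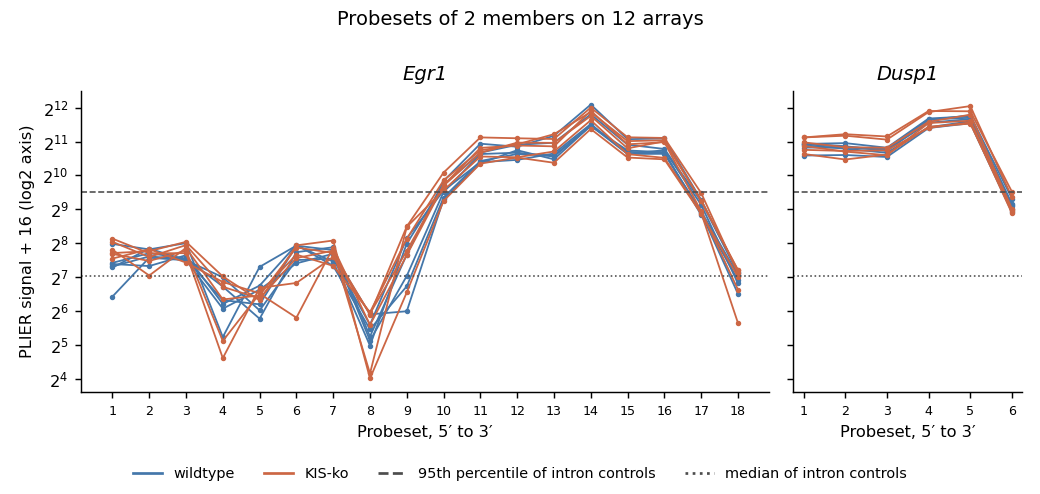
PLIER signal plus 16 (log2 axis) of each Egr1 probeset (left, 18) and each Dusp1 probeset (right, 6) in order from the 5′ end, with 1 line per array, 6 wildtype in blue and 6 KIS-ko in orange. The dashed line is the 95th percentile (713) and the dotted line the median (114) of the intron controls, each plus 16; Egr1 probesets 10 to 16 and Dusp1 probesets 1 to 5 lie above the dashed line on average, and the lines of both genotypes are mixed throughout.

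No member passed the test between the genotypes. At an adjusted p under 0.05 (limma, litter as a block) 0 of the 9 members were called, where 2 of 17550 genes (0.0114%) were, Uhmk1 and Fcgr3, an Fc receptor named after its value was seen (-0.52), and at an unadjusted p under 0.05 again 0 of 9, where 5.9% of all genes passed. The 95% intervals of the 9 fold changes together ran from 0.863 (Fos) to 1.18 (Egr1). Over the other settings the outermost bounds were 0.814, for Fos with a pseudocount of 1 and for Arc with the median over probesets, and 1.31, for Npas4 with that median, and after centring they ran from 0.874 to 1.25. Dim probesets enter most of these averages, so the bounds hold for these averages. Over the 7 bright probesets of Egr1 the upper bound was 1.25. These are bulk samples, in which fewer cells of a type and less RNA per cell cannot be told apart.

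Among the members of AP-1, Fos values in wildtype brains had a lowest value of 6.96, a median of 7.12 and a highest of 7.29, and in KIS-ko brains 6.87, 7.08 and 7.52. Both the lowest and the highest of the 12 brains were KIS-ko, from litters 2 and 3. The log2 difference was 0.0063 with a standard error of 0.098 (adjusted p = 0.985, limma), with 3 of 6 litters higher in KIS-ko. Junb, on chromosome 8, ranged from 7.62 to 8.12 (median 7.84) in wildtype and from 7.77 to 8.14 (median 7.93) in KIS-ko brains. The pair of litter 5 was highest in each genotype and the groups overlapped over most of their range. Junb was higher in the KIS-ko littermate in 5 of 6 litters, with a log2 difference of 0.098 and a standard error of 0.060, the lowest p of the members (unadjusted p = 0.133, adjusted p = 0.706, limma).

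In the EGR family, Egr1, on chromosome 18, had a lowest value of 8.41, a median of 8.50 and a highest of 8.73 in wildtype, and 8.45, 8.57 and 8.87 in KIS-ko brains. The KIS-ko brains of litters 1 and 4 were the highest of the 12, followed by the wildtype brains of litters 4 and 5. Its log2 difference was 0.074 with a standard error of 0.072 (adjusted p = 0.737, limma), higher in 4 of 6 litters. With the median over probesets in place of the mean the difference of Egr1 was 0.20 (unadjusted p = 0.0121, adjusted p = 0.758), and over its 7 bright probesets alone it was 0.11 (adjusted p = 0.750). The mean signals of its 18 probesets had a median of 196, below 713, so the first of these values comes from dim probesets. Egr2, on chromosome 10, ran from 7.91 to 8.39 (median 8.14) in wildtype and from 8.02 to 8.28 (median 8.13) in KIS-ko brains, with a log2 difference of -0.0045 and a standard error of 0.052. The wildtype brains of litters 4 and 5 were the lowest and the highest of all 12, and both of their littermates lay on the same side of the median.

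Npas4, on chromosome 19, had a lowest value of 8.11, a median of 8.43 and a highest of 8.55 in wildtype brains, and 8.08, 8.48 and 8.58 in KIS-ko brains. Low values were those of both brains of litter 5 and of the KIS-ko brain of litter 2 (8.16), while the other 9 lay between 8.39 and 8.58. The difference was -0.0042 with a standard error of 0.067 (adjusted p = 0.985, limma). Nr4a1, on chromosome 15, ran from 8.88 to 9.24 (median 9.12) in wildtype and from 8.92 to 9.30 (median 9.10) in KIS-ko brains. Its difference of 0.0059 had a standard error of 0.073, and 3 of 6 litters went each way.

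Of the remaining members, Dusp1, on chromosome 17, had a lowest value of 10.60, a median of 10.81 and a highest of 10.88 in wildtype, and 10.61, 10.78 and 11.13 in KIS-ko brains. The KIS-ko brains of litters 1 and 4 (11.13 and 11.10) stood above the other 10, which all lay at or below 10.88. All 6 of its probesets had a difference above 0, from 0.017 to 0.11, and the gene a log2 difference of 0.062 with a standard error of 0.064 (adjusted p = 0.746, limma). Arc, on chromosome 15, ran from 8.39 to 8.67 (median 8.55) in wildtype and from 8.42 to 8.60 (median 8.53) in KIS-ko brains, with a difference of -0.033 and a standard error of 0.057. Ier2, on chromosome 8, ran from 6.57 to 7.04 (median 6.72) in wildtype and from 6.46 to 6.97 (median 6.81) in KIS-ko brains. Its difference of 0.021 had the second largest standard error of the members, 0.085, after that of Fos.

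**Figure D2:**
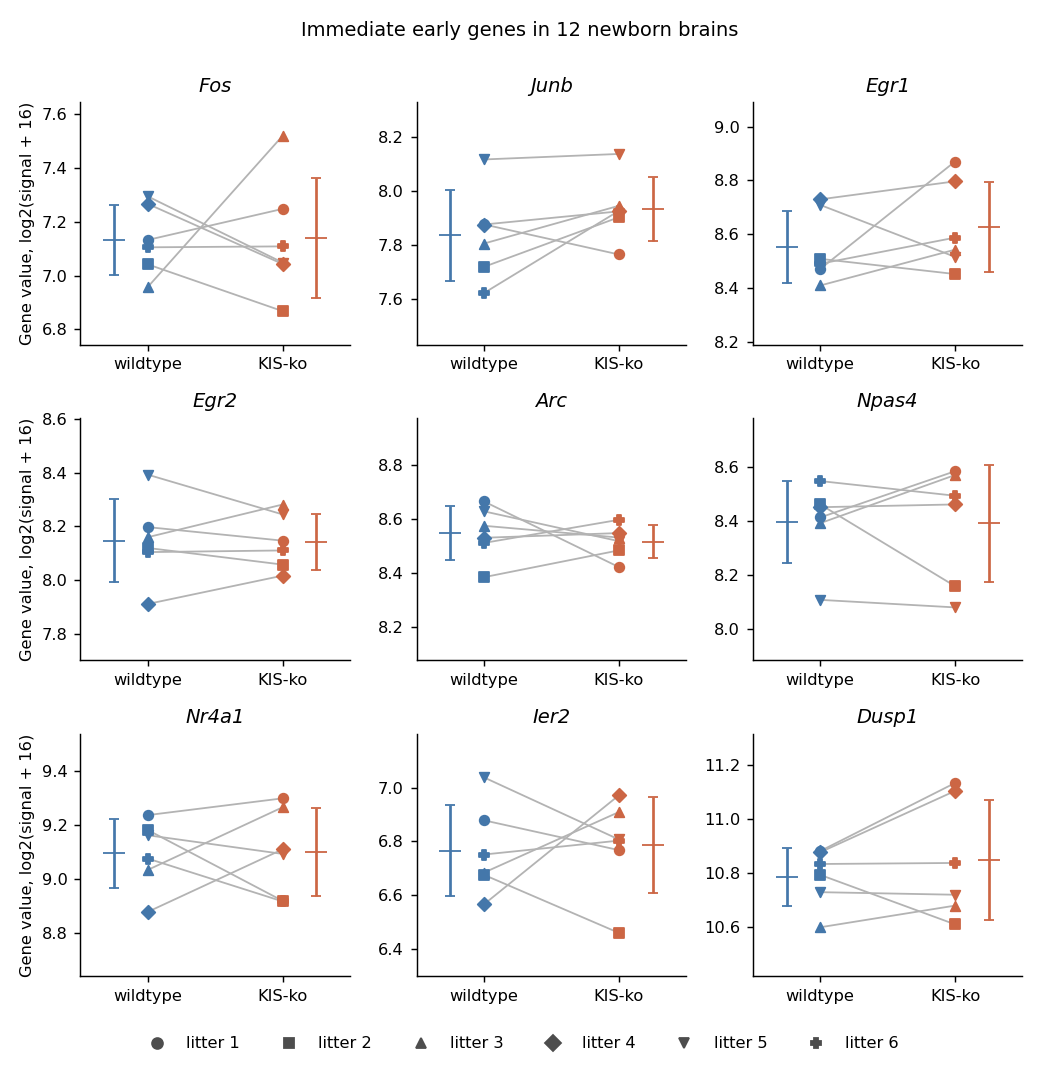
Gene value, log2(signal + 16), of the 9 members in the 6 wildtype (blue) and 6 KIS-ko (orange) brains, with littermates joined by a line, 1 symbol per litter, and mean ± SD (n = 6) beside each group. Every panel spans the same log2 range; groups overlap in all 9, and the lines of a panel run both up and down.

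In none of the 9 did the groups stand apart without overlap, which occurred in 0.199% of all genes, and in none did all 6 litters move the same way, which occurred in 2.35%. Of the 78 member probesets 0 were called at an adjusted p under 0.05 (0.00542% of all probesets were), and 4 had an unadjusted p under 0.05, 2 of Junb in opposite directions, 1 of Egr1 and 1 of Npas4, all of them dim (6.2% of all probesets passed). By any amount, 3 of the 9 members were lower in KIS-ko, where 69.8% of all genes were, and the median difference was 0.0063 for the members and -0.037 for all genes. With each array centred on its median, 0 of the 9 were lower, where 38.1% of all genes were, and the median of all genes was 0.019, so the direction of the small differences depended on the scaling. The median of the members lay 0.043 above that of all genes, a distance that centring cannot change. It was 0.015 without litter 3, 0.086 without litter 2, 0.090 without litter 5 and 0.089 with the median over probesets.

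The number of members higher in the KIS-ko littermate differed between litters. In litter 3, 8 of 9 were higher in the KIS-ko brain, all but Arc, where 51.0% of all genes were higher. In litter 5, 1 of 9 was higher, Junb, against 33.5% of all genes, and in litter 2 it was 2 of 9, Junb and Arc, against 31.4%. In litter 4, 8 of 9 were higher, where 69.9% of all genes were, in litter 6, 7 of 9, against 29.8%, and in litter 1, 5 of 9, against 35.1%. With arrays centred on their medians, the counts for litters 1 to 6 were 6, 4, 8, 4, 3 and 9 of 9, against 57.5%, 62.2%, 59.7%, 42.3%, 44.8% and 63.1% of all genes. The 9 genes of a litter share 2 arrays and are no replicates of one another.

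**Figure D3:**
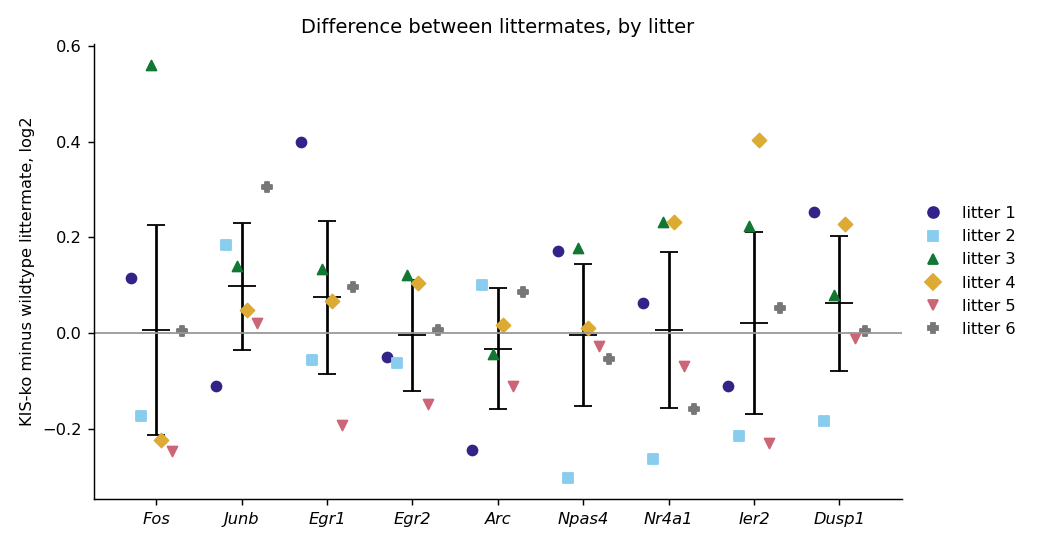
Difference between the KIS-ko and the wildtype littermate (log2) for each of the 9 members, with 1 symbol per litter, and the mean difference with its 95% interval from limma in black. The black intervals of all 9 members include 0, and the members above 0 number 5, 2, 8, 8, 1 and 7 of 9 in litters 1 to 6, where 35.1%, 31.4%, 51.0%, 69.9%, 33.5% and 29.8% of all genes are.

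Among members with bright probesets, single pairs differed in gene value by up to 0.40 in Egr1, in litter 1, and down to -0.30 in Npas4 and -0.26 in Nr4a1, both in litter 2. These values average dim with bright probesets. Over the 7 bright probesets of Egr1 alone, the brains of litter 1 lay farther apart, at 10.53 (wildtype) and 11.09 (KIS-ko). Fos, without a bright probeset, stood at 0.56 in litter 3, -0.25 in litter 5 and -0.22 in litter 4, and without litter 3 its mean difference was -0.10.

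Of the members with bright probesets, the highest of the 12 brains exceeded the lowest 1.45-fold for Dusp1, 1.42-fold for Npas4, 1.40-fold for Egr2, 1.38-fold for Egr1 and 1.34-fold for Nr4a1, on the log2(signal + 16) scale. For the other 4, whose signal lies within that of the intron controls, no fold is given. The folds given are of averages over bright and dim probesets, so their order depends on the share of dim ones. Over its 7 bright probesets alone, Egr1 ran from 10.41 to 11.09, in the KIS-ko brains of litters 2 and 1. Its SD was then 0.220, where that of Dusp1 without dim probesets was 0.169. Compared with the 500 genes nearest in level, the SD of Dusp1 over the brains (0.171) was at percentile 94.8 and that of Arc (0.080) at percentile 12. These genes were matched on level alone. The SD of an average also depends on the number of probesets and on their mean r, which was 0.883 in Dusp1 and -0.047 in Arc. Npas4 (0.179) stood at percentile 84.0, Fos (0.174) at 82.0, Ier2 (0.165) at 71.8, Junb (0.149) at 70.4, Egr1 (0.149) at 70.2, Nr4a1 (0.141) at 69.4 and Egr2 (0.126) at 52.0. With the median over probesets the SD of Arc was 0.169, above that of Egr2 (0.092), Nr4a1 (0.150) and Egr1 (0.158), and within litters it was 0.092, where that of Egr2 was 0.073. The percentiles also depended on the scaling. After centring Dusp1 stood at 95.8, Junb at 92.2, Egr1 at 90.8, Npas4 at 80.8, Egr2 at 79.6, Nr4a1 at 78.8, Fos at 76.6, Arc at 57.6 and Ier2 at 57.0.

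Most pairs of members had a correlation above 0. The 36 pairs of members had a median Pearson r over the 12 brains of 0.272, with 26 pairs above 0, where all pairs of the 17550 genes had a median of 0.099 and 58.1% above 0. After centring the arrays the median was 0.329 with 28 pairs above 0, where all gene pairs had a median of 0.052 and 54.7% above 0. Members are points that share 12 arrays, so these medians are descriptions. No pair passed the threshold with arrays as deposited (permutation test with 100000 resamples, two-sided, adjusted over the 36 pairs).

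**Figure D4:**
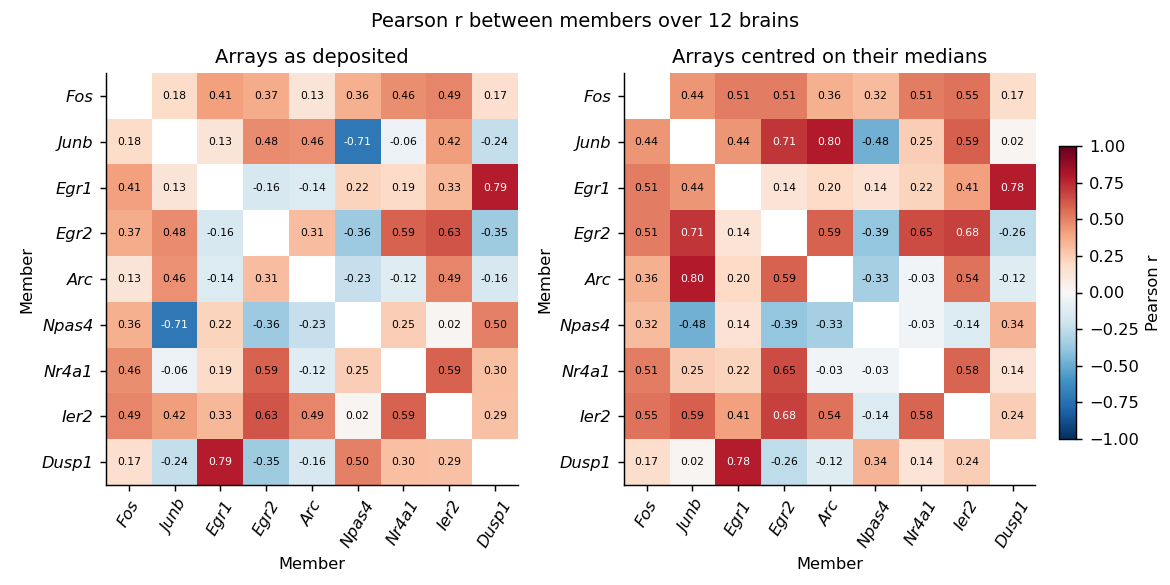
Pearson r over the 12 brains for each pair of members, with arrays as deposited (left) and after centring each array on its median (right); red is positive and blue negative. Egr1 with Dusp1 is at 0.79 and 0.78 in the 2 panels, while Npas4 with Junb is at -0.71 and -0.48.

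With arrays as deposited the closest pair was Egr1 and Dusp1, with r = 0.789 (permutation p = 0.0023, adjusted p = 0.0814) and Spearman's rho = 0.664 (adjusted p = 0.354). With the KIS-ko brains of litters 1 and 4 left out, which lay farthest from the Egr1 median, r was 0.429, so on this scale the relation rests in good part on them. It was 0.984 among the 6 KIS-ko and 0.320 among the 6 wildtype brains, and the difference between these was not tested. On within-litter differences r was 0.689 (exact p = 0.125, 6 litters). After centring, r was 0.782 (adjusted p = 0.0416) and rho 0.671 (adjusted p = 0.185), and within litters r was 0.773 (exact p = 0.0708). Without the same KIS-ko brains of litters 1 and 4 the centred r was 0.644, and without both brains of litter 1, which were the farthest after centring, 0.763. With the relative SD filter of the study's methods, r was 0.522, and with the median over probesets 0.263. Of the 18 Egr1 probesets 11 were dim, so that its median is taken among dim probesets and leaves out the bright ones.

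**Figure D5:**
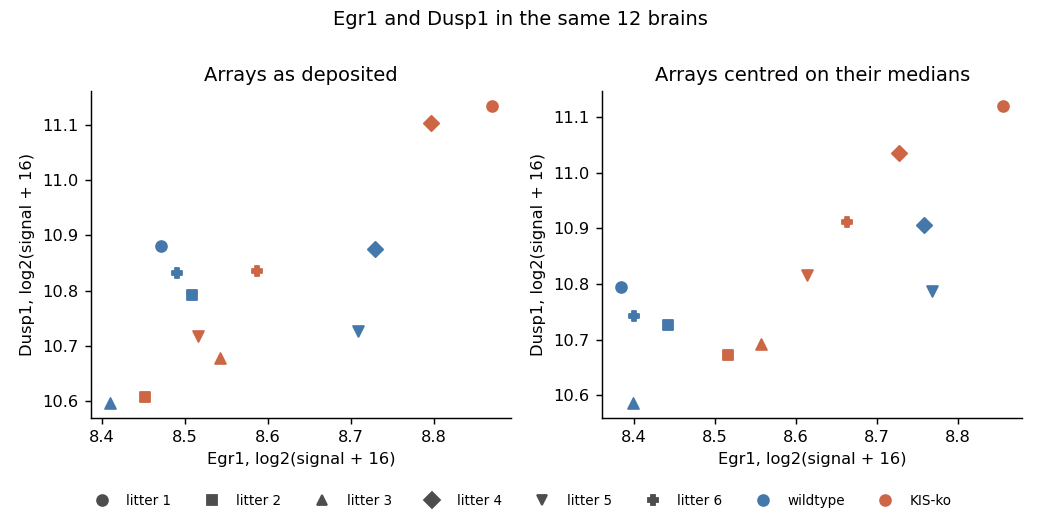
Gene value of Dusp1 against that of Egr1, both log2(signal + 16), in the 12 brains, with arrays as deposited (left) and centred on their medians (right); colours give the genotype and symbols the litter. The KIS-ko brains of litters 1 and 4 lie at the upper right in both panels, and r is 0.789 on the left and 0.782 on the right.

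Junb and Arc had r = 0.459 (adjusted p = 0.431) with arrays as deposited and 0.796 (adjusted p = 0.0416) after centring, with rho = 0.762 (adjusted p = 0.185). On within-litter differences their r was 0.885 (exact p = 0.0250, adjusted p = 0.412 over 36 pairs) and after centring 0.951 (exact p = 0.00417, adjusted p = 0.150). Both lack bright probesets, and with the relative SD filter, which removes 2 of the 6 Junb probesets, r was -0.063. With the array median, Junb had r = -0.721 as deposited and -0.860 after centring and Arc -0.107 and -0.688, and the part of the array level in the relation was not tested. Centring subtracts the array median, so that a gene that does not follow it is set against it by construction.

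Npas4 and Junb had the lowest r of the 36 pairs, -0.713 (adjusted p = 0.182), and -0.481 after centring. In litter 5 both brains had high Junb and low Npas4, and on within-litter differences r was -0.501 (exact p = 0.311). Npas4 had r = 0.599 with the array median, where Junb had -0.721, and the part of the array level in this pair was not tested. Among Egr2, Nr4a1 and Ier2 the pairs had r of 0.593, 0.630 and 0.587 (adjusted p = 0.320 for each), and after centring 0.648, 0.683 and 0.583. Without the wildtype brains of litters 4 and 5 the r of Egr2 with Ier2 fell from 0.630 to 0.288, and it was 0.928 among wildtype and 0.25 among KIS-ko brains, a difference that was not tested.

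Fos, the reference member, had an r above 0 with each of the others. With arrays as deposited r ran from 0.130 with Arc to 0.487 with Ier2 over 8 relations, and none passed the threshold (lowest adjusted p over the 8 = 0.414 for r and 0.355 for rho, permutation tests). After centring r ran from 0.173 with Dusp1 to 0.547 with Ier2, with 0.514 for Egr1, 0.513 for Egr2, 0.442 for Junb and 0.359 for Arc (lowest adjusted p = 0.180). As deposited and without the KIS-ko brains of litters 2 and 3, the lowest and the highest for Fos, r with Egr1 rose from 0.414 to 0.645, whereas with Ier2 it fell from 0.487 to 0.141, with Nr4a1 from 0.463 to 0.091 and with Npas4 from 0.357 to -0.048. Among the 6 wildtype brains Fos and Egr1 had r = 0.925 (exact p = 0.0167) and among the 6 KIS-ko brains 0.198 (exact p = 0.718), the first being 1 of 16 such values and not adjusted.

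The differences within litters were compared in the same way. The median r between members on the 6 within-litter differences was 0.381, with 27 of 36 pairs above 0, where all gene pairs had a median of 0.180 and 59.5% above 0. As deposited, the highest was that of Egr2 with Ier2, at 0.933 (exact p = 0.0125), and the lowest that of Arc with Npas4, at -0.711, and none of the 36 passed after adjustment (lowest adjusted p = 0.412). After centring the median was 0.295 with 29 of 36 above 0, and the value of all gene pairs was not computed on this scale. Egr2 with Ier2 then stood at 0.632, and r ran from -0.598 for Arc with Nr4a1 to 0.951 for Junb with Arc (lowest adjusted p = 0.150). Between littermates the correlation was highest for Egr2 (r = 0.749 over 6 litters) and Dusp1 (0.726) and lowest for Fos (-0.476), and none of the 9 passed an exact permutation test after adjustment (lowest adjusted p = 0.481), and the median over all genes was 0.088. The r of Fos turned to 0.306 when its 2 most extreme litters, 3 and 5, were left out, and that of Egr2 was 0.477 in the absence of litters 4 and 5. By rho the highest was Dusp1 (0.829) and the lowest Arc (-0.429).

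The mean profile of the members, the average of their deviations from their own means after each array was centred on its median, was highest in the wildtype brain of litter 5 (0.148) and the KIS-ko brain of litter 3 (0.111) and lowest in the wildtype brains of litters 6 (-0.127) and 2 (-0.121). On deposited values the highest were the KIS-ko brains of litters 3 (0.097) and 1 (0.096) and the lowest that of litter 2 (-0.162), so the extremes changed with the scaling. The centred profile was above 0 in 1 of 6 wildtype and 4 of 6 KIS-ko brains, and 8 of 9 members lay above their own mean in the KIS-ko brains of litters 5 and 6. With arrays as deposited it was above 0 in 2 of 6 and 4 of 6, and the KIS-ko brains of litters 5 and 6 had 3 and 5 of 9 members above their mean. The r of the profile with the array median was 0.147 as deposited and -0.565 after centring, which subtracts that median. The genes most like the centred profile among 6920 ranked genes included Usf2, a helix-loop-helix transcription factor (r = 0.950), Saps1 (0.897), Tmem151a (0.897), Mtss1 (0.895), Sox21 (0.893), Sh3glb2, Fam155a, Zfp191 and Ppp1r1b, the phosphatase inhibitor of striatal neurons (0.885). With arrays as deposited the r of Usf2 was 0.940 and that of Saps1 0.699. The centred values most like Fos alone were those of Creld2 (0.848), Rab6b (0.832), Ufm1 (0.821), Tnfrsf19 (0.801) and Mmp17 (0.800), and as deposited the r of Rab6b was 0.310. They head a ranking of many genes over 12 brains and carry no test.

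A wider list of 43 immediate early and activity-induced genes, 42 of them matched, gave no call between the genotypes either. At an adjusted p under 0.05, 0 of 42 were called, and 0 of 42 also at an unadjusted p under 0.05 (5.9% of all genes), with 23 of 42 lower (69.8% of all genes). Their differences ran from -0.11 for Crem to 0.14 for Maff, with a median of -0.0084. The direction depended on the scaling, with 7 of 42 lower after centring (38.1% of all genes) and a median of 0.047, and 9 of 42 lower after quantile normalization (49.8% of all genes) and a median of 0.037. In this list the centred profile of the members was followed most closely by Klf4, a zinc finger factor (r = 0.768), Sik1, a CREB-regulated kinase (0.755), the EGR members Egr4 (0.717) and Egr3 (0.684), and Bdnf, a neurotrophin (0.664). Their r on deposited values was 0.601 for Klf4, 0.677 for Sik1, 0.392 for Egr4, 0.534 for Egr3 and 0.459 for Bdnf, and Egr4 has no bright probeset. The median r of the 42 with the profile was 0.358, with 37 above 0, and that of all genes 0.217. With arrays as deposited these were 0.372, 37 and 0.111.

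Genes that control or accompany the response gave no call. Of 20 matched regulators, among them Creb1, Srf, Mef2 factors and MAP kinases, 0 were called (0.0114% of all genes) and 0 had an unadjusted p under 0.05 (5.9%), with a median difference of -0.042, where that of all genes was -0.037. The same held for 8 genes of the glucocorticoid response (median -0.023) and 6 of the heat shock response (median -0.026). Among markers of other cells in the sample, 6 of erythroid cells, 8 of endothelium, 8 of meninges, 6 of choroid plexus, 7 of microglia, 6 of neurons, 5 of astrocytes and radial glia and 4 of the oligodendrocyte lineage were matched, 0 were called and 1 had an unadjusted p under 0.05, Gfap, an intermediate filament of astrocytes (-0.27, unadjusted p = 0.0078, adjusted p = 0.706, limma). Crem and Per1 stand in 2 of these lists.

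The erythroid markers had a median r of 0.617 with the members' centred profile, with 5 of 6 above 0, and of 0.305 with arrays as deposited, with 4 of 6 above 0, where the median of all genes was 0.217 and 0.111. Their summed signal ran from 15903 to 19492 in wildtype and from 16867 to 20541 in KIS-ko brains, 3 of the 6 had a bright probeset, and the part of blood cells in the profile was not tested. The other lists had a median r with the centred profile of 0.398 for the glucocorticoid genes, 0.391 for neurons, 0.390 for the oligodendrocyte lineage, 0.327 for heat shock, 0.320 for meninges, 0.289 for microglia, 0.25 for endothelium, 0.226 for choroid plexus, 0.154 for the regulators and -0.100 for astrocytes and radial glia. The deposited values gave 0.454, 0.150, 0.202, 0.234, 0.243, 0.363, 0.373, 0.377, 0.164 and 0.110 in the same order.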

How the data were processed

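Affymetrix Mouse Exon 1.0 ST arrays measured the total RNA of 12 newborn brains, 1 array each. The authors used the Affymetrix Expression Console with quantile normalization at the exon level and PLIER, and deposited the linear intensity of each probeset on each array. The genome build of their table is not given in the sources used here. Main probesets with a gene symbol were used, and a gene's value was the mean of log2(signal + 16) over its probesets. All 17550 genes entered 1 limma fit (version 3.58.1, R 4.3.3) that held the litter as a block, with p-values adjusted after Benjamini and Hochberg and a threshold of 0.05. The script was tested on simulated data. The methods' filter on the relative SD of a probeset (above 0.4 in either genotype) was an alternative only. It rejected 8 of the 78 member probesets (10.3%, against 7.20% of all).

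The pairing comes from the labels, which give each pair 1 litter. Littermates' deviations from their genotype means correlated over all genes with r = 0.258, -0.049, 0.118, -0.097, 0.401 and -0.089 (litters 1 to 6). Brains of different litters had a mean r of -0.017 and ran from -0.392 to 0.261, a range that only litter 5 of the 6 pairs exceeded. Correlations were tested by permutation (100000 resamples, or exact over 6 litters) in Python 3.11.15 with scipy 1.17.1, as r and rho, adjusted over each family. The precision is limited by the number of arrays. The named genes were all members and Uhmk1, the 5 genes of the wider list most like the members' mean profile and any of its genes with an unadjusted p under 0.05, and the 10 other genes most like the profile and 5 most like Fos, among those with at least 3 probesets and a mean signal above the control line. A gene that this rule names is not reported here. The members, lists and rules were chosen with earlier results of these data known. Alternatives were no block, pseudocounts of 1 and 64, the relative SD filter, dim probesets left out, probesets matching 1 place, 2 other scalings, the median over probesets, trend and robust moderation, the methods' fold change, and each litter left out. Their use on the pairs of members, the counts of lower members, the unadjusted counts, the mean profile and Uhmk1 was chosen after seeing the data.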

Additional observations from a re-analysis of the deposited data

Results flagged for a closer look

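Among 18 groups of 6 brains searched, 2 for each of the 9 members, 1 value stood far from the others. Npas4 was at 8.11 in the wildtype brain of litter 5, and its gap to the next wildtype brain took 0.645 of the range of the group. Its KIS-ko littermate was the lowest of its own group, at 8.08. The search used Dixon's ratio of gap to range for groups of 6. Its line is set so that chance gives about 1 such value in 20 groups of normally distributed values.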

How the results depend on the processing

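No member and no gene of the wider list was called under any of the 16 alternatives run for the counts. Genes called in all numbered 2 with the litter as a block and 1 without the replicate block, with a pseudocount of 1 and with the relative SD filter, 5 with dim probesets left out, and 1 to 5 with a litter left out. Members lower in KIS-ko numbered 0 after centring (38.1% of all genes), after quantile normalization (49.8%) and without dim probesets (72.5%, where Fos, Junb, Arc and Ier2 have no value), and 1 with a pseudocount of 64 (69%). They numbered 1 to 6 with a litter left out, 6 without litter 3 (71.9%), 5 without litter 4 (71.9%) and 1 without litter 2 (65.7%) or 5 (67.2%). The 1 member at an unadjusted p under 0.05 with the median over probesets (6.02% of all genes) was Egr1, whose median is taken among dim probesets. Without litter 4, 3889 genes had an unadjusted p under 0.05 (22.2%, against 1036 with all litters), and 5 of 42 of the wider list (11.9%), 4 of them lower, and without litter 6 it was 527, without litter 2 594 and without litter 1 620. Centring gave 5 of 42 genes of the wider list at an unadjusted p under 0.05 and higher in KIS-ko (4.33% of all genes), quantile normalization 2 of 42 (4.04%) and leaving out dim probesets 2 of 31 (1.74%).

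The larger differences kept their sign and moved in size. Egr1 stood at 0.0095 without litter 1, 0.028 with a pseudocount of 1, 0.128 without litter 5 and 0.130 after centring. Dusp1 stood at 0.024 without litter 1, 0.029 without litter 4, 0.111 without litter 2 and 0.118 after centring (unadjusted p = 0.0518, adjusted p = 0.755), and Junb at 0.154 after centring, 0.056 without litter 6 and 0.045 with the median over probesets. Differences near 0 changed sign. Egr2 stood at 0.051 after centring, 0.038 after quantile normalization, 0.0084 without dim probesets, 0.062 with the median, 0.038 with the methods' fold change and 0.0066 with a pseudocount of 64. Npas4 stood at 0.052, 0.043, 0.041, 0.078, 0.024 and 0.00086 in the same order. Arc stood at 0.023 after centring and 0.017 after quantile normalization, Fos at -0.037 with the median and -0.0043 with a pseudocount of 1, and Nr4a1 at -0.00065 with the median. With a litter left out the differences ran from -0.10 to 0.057 for Fos, from -0.030 to 0.024 for Egr2, from -0.059 to 0.0097 for Arc, from -0.041 to 0.056 for Npas4, from -0.039 to 0.060 for Nr4a1 and from -0.056 to 0.071 for Ier2. The log2 difference of Uhmk1 ran from -2.75 to -1.51 over its alternatives.

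The r of Arc with Fos was -0.23 on within-litter differences, and with a litter left out it ran from -0.15 to 0.29, and that of Dusp1 with Fos from -0.048 to 0.40. Egr1 with Fos was at -0.12 with the median over probesets, and Arc with Fos at 0.74 (adjusted p = 0.0474). Junb with Arc was at -0.063 with the relative SD filter. The r of Egr1 with Dusp1 ran from 0.72 to 0.87 with a litter left out, passing without litter 5, and passed with a pseudocount of 1 (0.84). The median r between members ran from 0.146, without litter 2, to 0.381, on within-litter differences. The causes of these changes were not tested. Signal near that of the intron controls limits Fos, Junb, Arc and Ier2.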
